A study of Mus musculus with 16 samples.

Results

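Expression of 9 genes of interneurons born in the medial ganglionic eminence (MGE) was examined in RNA-seq of mouse cortex after loss of *Knl1*. The 9 genes were chosen by name as known genes of this lineage, with earlier results of these data, including those for *Erbb4*, already known. They were the transcription factors *Lhx6*, *Maf*, *Sox6* and *Satb1*, the neuropeptides *Sst* and *Npy*, the chemokine receptors *Cxcr4* and *Ackr3*, and the neuregulin receptor *Erbb4*. They are 9 of 51912 listed genes, of which 27394 had at least 1 count. All 9 had a count in each of the 15 mice, and all 9 had a mean of at least 5 CPM (counts scaled to the library total).

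Cortical interneurons are GABAergic neurons that are born outside the cortex, in the ganglionic eminences of the ventral forebrain, and migrate tangentially into the cortical wall. In the MGE lineage, NKX2-1 switches on *Lhx6*, and LHX6 acts with SOX6, SATB1 and MAF to set the fate of cells that later become somatostatin or parvalbumin interneurons. The migrating cells follow the chemokine CXCL12 through CXCR4 and ACKR3 and respond to neuregulins through ERBB4. In a cortex at this embryonic age, transcripts of these genes are therefore a readout of immigrant cells beside the locally made excitatory lineage. However, *Sox6*, *Satb1*, *Cxcr4*, *Ackr3* and *Maf* are also known in other cells. The paper names *Erbb4*, with *Gad1*, as a gene of interneuronal lineages and does not tie it to the MGE.

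UMI RNA-seq of E15.5 cortex was available from 15 mice, which were 7 ctrl, 4 cKO and 4 dKO mice. The cKO mice were *Knl1* fl/fl;*hGFAP-Cre*, where *Knl1* (also *Casc5*) encodes a kinetochore protein, and in the dKO mice floxed *Trp53* (*Trp53* fl/fl) was deleted by the same transgene as well. Of the ctrl mice, 5 were wild type and 2 (T4 and T5) were heterozygous for *Casc5*, and the strain background was not given in the labels. The *hGFAP-Cre* transgene recombines in the neural progenitor cells (NPCs) of the cortex from mid-neurogenesis on, so the interneurons arise largely outside the progenitors that the transgene is used to target, and recombination in the MGE was not measured here. Each mouse carries a label of litter, and the litters differ in the groups they hold. Litter 1 held ctrl mice 2 and 6 and cKO mice 5 and 7, litter 2 held ctrl mice S1 and S3 and cKO mouse S2, litter 3 held ctrl mice T3, T4 and T5 and dKO mice T2 and T8, and litter 4 held cKO mouse F3 and dKO mice F1 and F7 with no ctrl mouse. All dKO mice were in batch 3, with cKO mouse F3 and ctrl mice T3, T4 and T5.

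The total count was between 399832 and 3266227 per ctrl mouse, 4178461 and 8800987 per cKO mouse, and 552186 and 5396803 per dKO mouse, so that every cKO mouse was sequenced more deeply than every ctrl mouse. A count of 3 stood for 7.50 CPM in the shallowest mouse and 0.341 CPM in the deepest, which covers counting error only. Excitatory markers of the cortex such as *Neurod2* and *Tbr1* were counted in all groups, and the 8 genes of that list summed to 1591 to 1982 CPM in ctrl. Levels below are CPM scaled by trimmed mean of M values (TMM), and fold changes are on the log2 scale from edgeR's likelihood ratio test with Benjamini-Hochberg false discovery rates (FDR) over all listed genes. In tissue RNA, fewer cells of a type and less RNA per cell cannot be told apart.

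*Erbb4* and *Sst* were the members on which the results turned, and their upstream sequence is given first. RefSeq promoter windows (GRCm38.p6) were found for 8 of the 9 genes, and *Maf* had no entry. The window printed for *Sst* covers the 250 bases before the RefSeq start, chr16:23890845-23891094 on the minus strand, and the capitals mark TGACGTCA, the palindromic cAMP response element for which the somatostatin promoter is known. The GENCODE annotation starts *Sst* further upstream, at base 23890958, inside this window. The window for *Erbb4* is chr1:69108060-69108309 on the minus strand and holds no TGACGTCA. It is shown because *Erbb4* was the only member at an FDR below 0.05 in the likelihood ratio test.
Sst: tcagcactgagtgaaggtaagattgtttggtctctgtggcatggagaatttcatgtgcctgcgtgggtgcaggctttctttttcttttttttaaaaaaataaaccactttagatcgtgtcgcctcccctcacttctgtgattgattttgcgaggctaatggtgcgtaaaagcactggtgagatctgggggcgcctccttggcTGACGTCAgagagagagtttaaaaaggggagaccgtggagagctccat
Erbb4: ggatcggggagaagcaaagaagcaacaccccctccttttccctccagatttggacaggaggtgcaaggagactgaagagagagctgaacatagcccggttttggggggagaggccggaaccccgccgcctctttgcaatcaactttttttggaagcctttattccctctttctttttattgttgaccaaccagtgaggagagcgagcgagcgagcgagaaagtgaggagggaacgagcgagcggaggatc
The element lay 48 to 41 bases before the RefSeq start of *Sst*. It was in 1 of the 19 windows of the 8 genes, and in 1.55% of the 32851 RefSeq windows of the same length. The *Erbb4* window was 54.0% G and C with 12 CpG, the *Sst* window 47.2% with 8 CpG, and the median over all windows was 52.4%. A match to these letters describes the window and does not show that a factor binds there.

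The genes differ greatly in the length over which reads were counted. *Erbb4* (ENSMUSG00000062209) spans 1075874 bases of chromosome 1 (68032186 to 69108059, minus strand), and *Sox6* (ENSMUSG00000051910) spans 567925 bases of chromosome 7, from 115470872 to 116038796 on the minus strand. *Sst* (ENSMUSG00000004366) spans only 1386 bases of chromosome 16 (23889573 to 23890958, minus strand). Coordinates of genes are those of GENCODE on GRCm38. Counts appeared to cover introns as well as exons, since of 4698 genes that lie inside a protein-coding gene on the same strand only 20 (0.426%) had a count, against 2484 of 4786 (51.9%) on the opposite strand. The 14 genes nested on the strand of *Lhx6*, *Satb1* or *Erbb4* all had 0 counts.

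Per kilobase of annotated exon and over all 15 mice, *Erbb4* was highest, at 159 ± 39.9 CPM per kb (SD, n = 15), followed by *Sox6* at 57.7 ± 11.2. *Sst* (22.0, from 2.33 to 52.6 over the mice) and *Lhx6* (18.1 ± 3.54) were next and overlapped. *Npy* was at 11.2 ± 4.49, *Cxcr4* at 7.12 ± 2.66, *Satb1* at 5.72 ± 0.654, *Ackr3* at 5.06 ± 1.98 and *Maf* at 4.31 ± 1.56 CPM per kb. Among these 5, neighbours in the order differed by less than the larger SD of the pair. Per kilobase of the whole gene the order changed. *Sst* then led at 11.4 and *Lhx6* followed at 3.70 CPM per kb, while *Cxcr4* (3.14), *Erbb4* (1.82) and *Sox6* (1.51) came after them. The plot of levels per mouse shows the 9 genes with their litters.

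**Figure D1:**
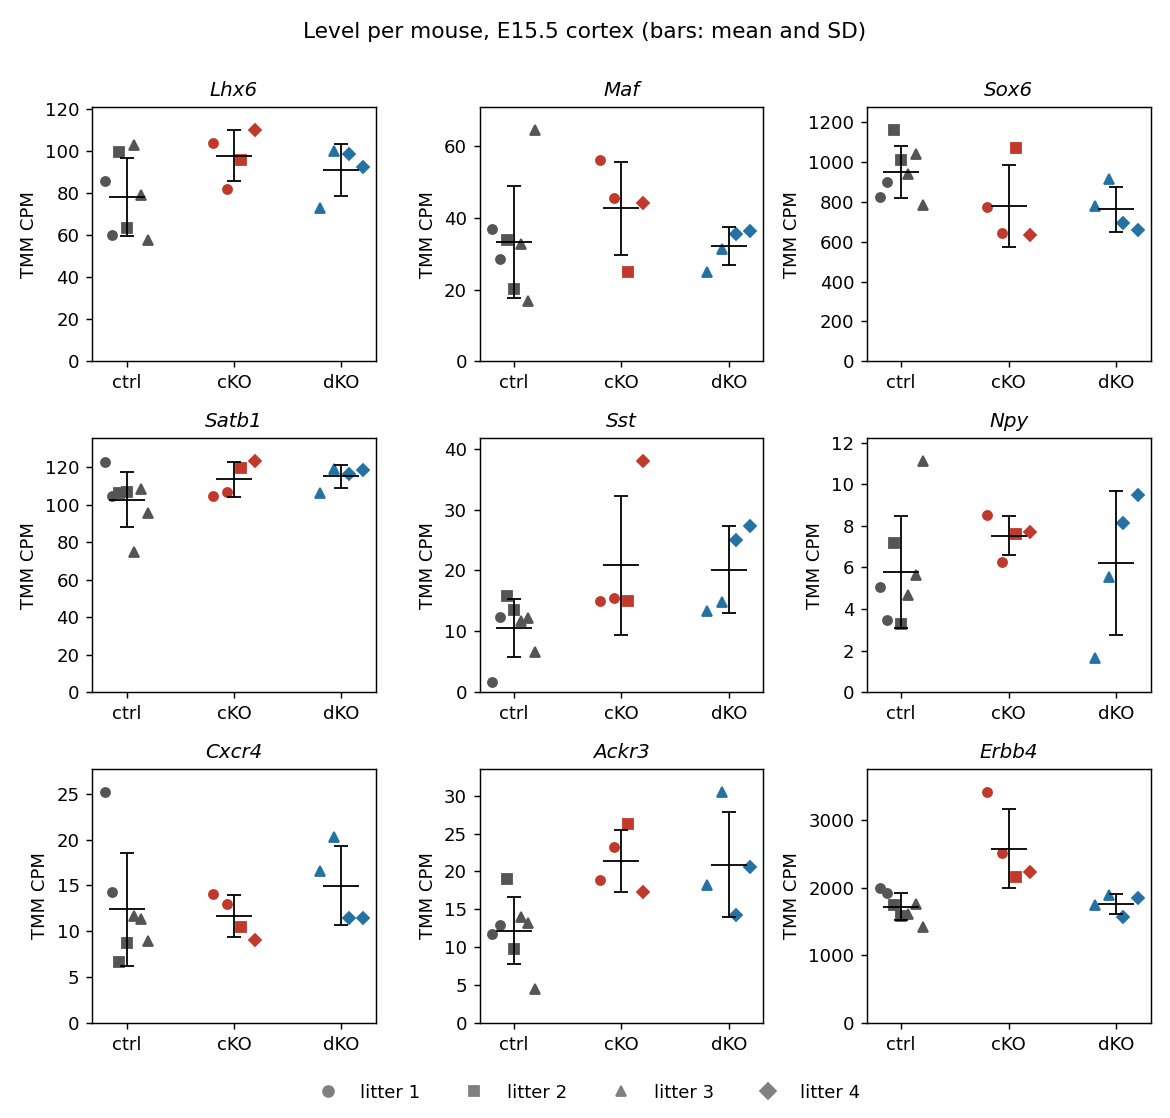
Level of each gene in TMM-scaled CPM (vertical axes, from 0) in 7 ctrl, 4 cKO and 4 dKO mice, 1 point per mouse with the symbol giving the litter, and bars for the mean and SD of each group. *Erbb4* in cKO (2162 to 3419 CPM) lies above all ctrl (at most 1997) and dKO mice (at most 1891), while the groups overlap for the other 8 genes.

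*Lhx6*, the LIM-homeodomain factor that defines the MGE lineage, lies on chromosome 2 from 36081953 to 36105408 (minus strand, ENSMUSG00000026890). It was in ctrl mice between 57.8 and 102.7 CPM, with a median of 79.0. In cKO mice 5, 7, S2 and F3 it was at 104, 81.8, 95.6 and 109.8 CPM. The dKO mice T2, T8, F1 and F7 were at 72.9, 99.8, 98.7 and 92.2 CPM. All cKO mice were thus above the ctrl median but within or just above the ctrl range, and the groups overlapped. The log2 fold change was 0.33 in cKO versus ctrl (95% interval 0.02 to 0.63, edgeR FDR = 0.876) and 0.26 in dKO versus ctrl (-0.06 to 0.58, FDR of 1). Between cKO and dKO it was 0.10 (-0.19 to 0.39). No difference in *Lhx6* passed the test, although the upper bound allows a 1.55-fold higher level in cKO.

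*Maf*, a large Maf factor expressed in postmitotic MGE interneurons, lies on chromosome 8 from 115682942 to 115707794 (minus strand, ENSMUSG00000055435). It was lowest in ctrl at 16.9 CPM, with a median of 32.7 and a highest value of 64.5 in mouse T5. The cKO mice 5, 7, S2 and F3 had 56.1, 45.5, 25.0 and 44.3 CPM, and the dKO mice T2, T8, F1 and F7 had 24.9, 31.4, 35.6 and 36.5 CPM. The highest and the lowest mice of all groups were ctrl mice. In cKO versus ctrl *Maf* had a log2 fold change of 0.43 (-0.05 to 0.90, FDR of 1), and it was 0.11 in dKO versus ctrl (-0.35 to 0.56). Without ctrl mouse T5, whose level rests on 29 counts, the value in cKO versus ctrl was 0.63 (edgeR FDR = 0.531).

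*Sox6*, an SRY-box factor needed for the positioning and maturation of MGE interneurons and expressed by cortical progenitors as well, was the member with lower values in both mutants. Ctrl mice were between 785 and 1159.6 CPM, with a median of 941. In cKO mice 5, 7, S2 and F3 it was at 775, 642, 1071 and 634 CPM. The dKO mice T2, T8, F1 and F7 were at 782, 916, 695 and 659 CPM. In cKO, 3 of 4 mice were below the lowest ctrl mouse, as were 3 of 4 dKO mice, and S2 was near the top of the ctrl range, like its ctrl littermates S1 (1009.9 CPM) and S3 (1159.6 CPM). The log2 fold change was -0.30 in cKO (-0.60 to -0.01, FDR of 1) and -0.32 in dKO (-0.60 to -0.04, FDR of 1), and neither passed the test. Without cKO mouse S2 it was -0.50 in cKO versus ctrl (edgeR FDR = 0.0616). The 3 mice of litter 4, which held no ctrl mouse, were at 634 to 695 CPM, and of the other 12 mice only cKO mouse 7 (642 CPM) was as low. Without F1 and F7 the log2 fold change in dKO versus ctrl was -0.16. A litter term in the fit gave -0.19 in cKO and -0.11 in dKO, where only litter 3 held both ctrl and dKO mice. The list of progenitor genes summed to 381 to 599 CPM in ctrl, 327 to 478 in cKO and 352 to 562 in dKO. The means of this sum were 518, 377 and 444 CPM in ctrl, cKO and dKO. Those of *Sox6* were 952, 780 and 763 CPM. Between cKO and dKO the log2 fold change of *Sox6* was 0.05 (-0.32 to 0.43). The part of progenitor genes in the values of *Sox6* was not tested.

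*Satb1*, a chromatin organizer that promotes the somatostatin fate, lies on chromosome 17 from 51736187 to 51833290 (minus strand, ENSMUSG00000023927) and was the least variable member. Its level was between 74.7 and 122.6 CPM in ctrl with a median of 106.0, between 104 and 123 CPM in cKO and between 106 and 119 CPM in dKO. Its fold change on the log2 scale was 0.11 in cKO (-0.13 to 0.34) and 0.16 in dKO (-0.09 to 0.41), so that a rise of more than 1.27-fold in cKO or 1.33-fold in dKO lay outside the intervals. Among the 4 transcription factors, none passed an FDR of 0.05 in any of the 3 comparisons.

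**Figure D2:**
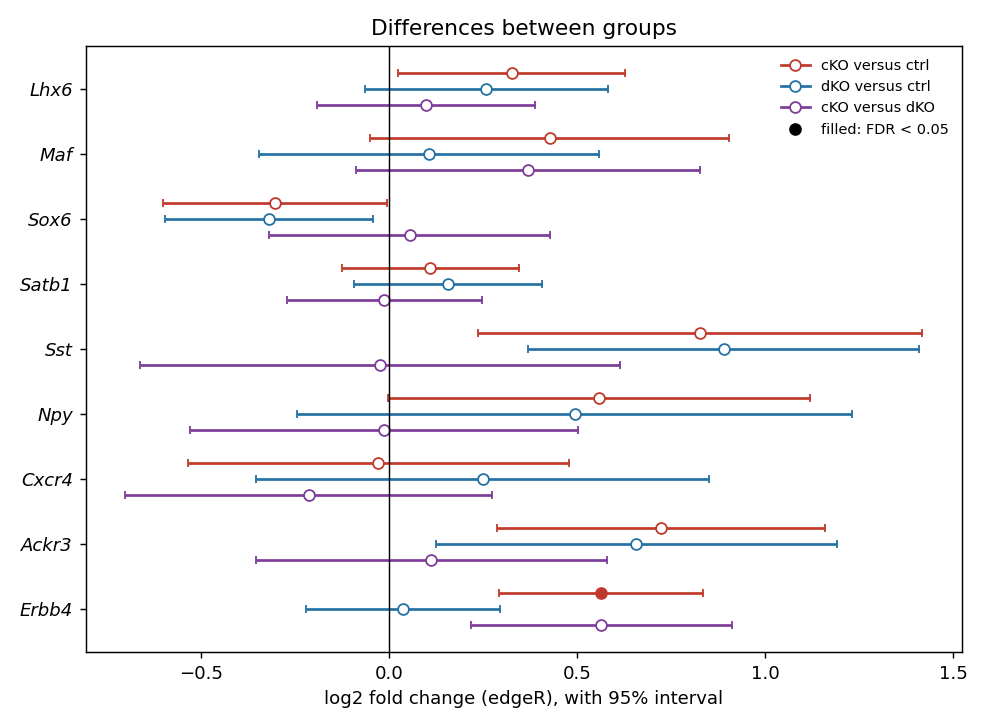
Log2 fold change (horizontal axis) of each gene in each mutant against ctrl and between the mutants, with 95% intervals from edgeR and filled points for FDR below 0.05. The only filled point is *Erbb4* in cKO versus ctrl (0.56), and *Sst* has similar values in cKO (0.83) and dKO (0.89) with wide intervals.

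*Sst* encodes somatostatin, the peptide that marks a main class of MGE interneurons. In ctrl it was between 1.68 and 15.9 CPM with a median of 12.2, the lowest value being 1 count in mouse 2. In cKO mice 5, 7 and S2 it was at 15.0, 15.5 and 14.9 CPM and in F3 at 38.0 CPM. The dKO mice T2 and T8 were at 13.3 and 14.8 CPM, and in F1 and F7 at 25.1 and 27.4 CPM. The 3 highest mice were the 3 mice of litter 4, which was at 25.1 to 38.0 CPM against 1.68 to 15.9 CPM in the other 12 mice, and these 3 included both mutant genotypes. The log2 fold change was 0.83 in cKO (0.24 to 1.42, edgeR FDR = 0.529) and 0.89 in dKO (0.37 to 1.41, FDR = 0.493). Without F3 it was 0.32 in cKO versus ctrl (FDR of 1), and without F1 and F7 it was 0.27 in dKO versus ctrl (FDR of 1). With litter as a covariate it was 0.30 in cKO (FDR of 1). In batch 1 alone it was 0.34, while in batch 3, where F3 is the only cKO mouse, it was 1.82 (edgeR FDR = 0.0237). Because litter 4 held no ctrl mouse, litter and genotype cannot be told apart in F1, F3 and F7.

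*Npy*, encoding neuropeptide Y, lies on chromosome 6 from 49822710 to 49829507 (plus strand, ENSMUSG00000029819). As the member with the fewest counts it had 1 to 67 per mouse. Its level was between 3.26 and 11.1 CPM in ctrl with a median of 5.04. In cKO mice 5, 7, S2 and F3 it was at 8.53, 6.25, 7.62 and 7.73 CPM and in dKO mice T2, T8, F1 and F7 at 1.66, 5.54, 8.15 and 9.51 CPM. The ctrl range held all cKO mice and 3 of the dKO mice, and T2 was below it. The coefficient of variation in ctrl was 46.9%, and counting error alone gives 46.0% at these counts. On the log2 scale the difference was 0.56 in cKO (0.00 to 1.12, FDR of 1) and 0.49 in dKO (-0.24 to 1.23), so that at this depth the interval in cKO held both no change and a rise of 2.17-fold.

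**Figure D3:**
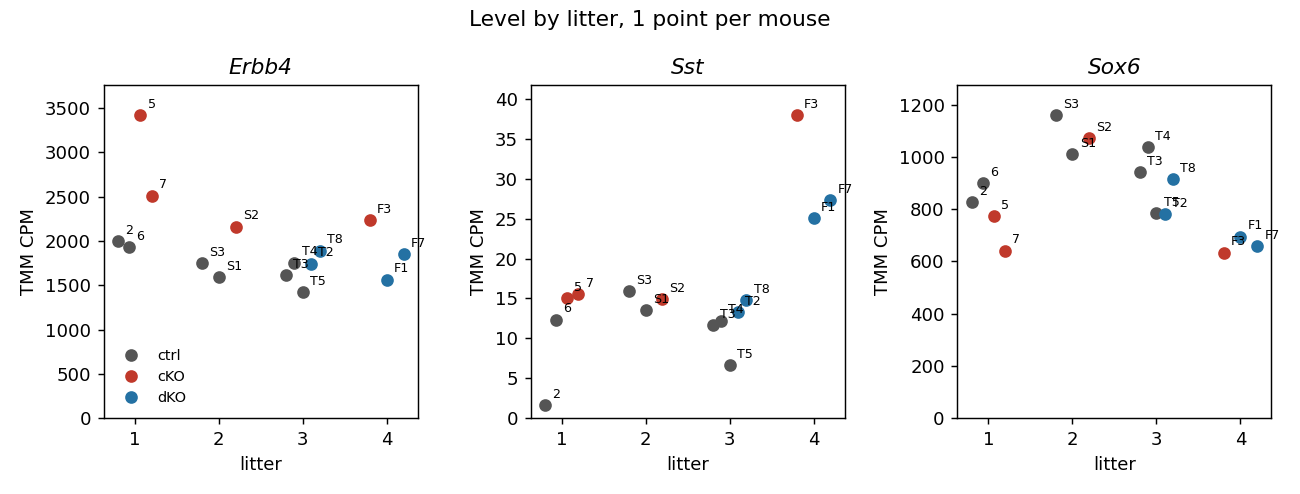
Level in TMM-scaled CPM (vertical axes, from 0) of *Erbb4*, *Sst* and *Sox6* by litter, 1 point per mouse with its name, colored by group. *Erbb4* is higher in cKO than in the other mice of each of litters 1, 2 and 4, whereas all 3 mice of litter 4 are high in *Sst* (25.1 to 38.0 CPM) and low in *Sox6* (634 to 695 CPM).

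*Cxcr4* and *Ackr3* encode the receptors for CXCL12 that keep migrating interneurons in their streams, CXCR4 as the signaling receptor and ACKR3 as an atypical receptor that takes up the ligand. *Cxcr4* lies on chromosome 1 from 128588199 to 128592293 (minus strand, ENSMUSG00000045382). In ctrl it was between 6.66 and 25.2 CPM with a median of 11.3. Levels were 14.0, 13.0, 10.5 and 9.09 CPM in cKO mice 5, 7, S2 and F3. The dKO mice T2, T8, F1 and F7 were at 16.6, 20.3, 11.5 and 11.4 CPM. Every mutant mouse was within the ctrl range, whose top was mouse 2 with 15 counts. A log2 fold change of -0.03 was found in cKO (-0.54 to 0.48) and of 0.25 in dKO (-0.35 to 0.85), with an FDR of 1 in edgeR for both, and without ctrl mouse 2 it was 0.16 in cKO.

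*Ackr3* lies on chromosome 1 from 90203980 to 90216751 (plus strand, ENSMUSG00000044337). It was between 4.45 and 19.0 CPM in ctrl with a median of 13.0, and the lowest value was 2 counts in mouse T5. In cKO mice 5, 7, S2 and F3 it was at 18.9, 23.3, 26.3 and 17.3 CPM. The dKO mice T2, T8, F1 and F7 were at 18.2, 30.5, 14.2 and 20.6 CPM. All 8 mutant mice were above 6 of the 7 ctrl mice, and the groups overlapped only through ctrl mouse S3 at 19.0 CPM. The log2 fold change was 0.72 in cKO (0.29 to 1.16, edgeR FDR = 0.238) and 0.66 in dKO (0.13 to 1.19, FDR of 1). These did not pass the test over all genes. In cKO versus ctrl the value kept its sign and stayed between 0.59 and 0.90 over the 11 fits that left out 1 mouse, was 0.78 with litter as a covariate (edgeR FDR = 0.104), and was 0.63 within batch 1. Within batch 3, where F3 is the only cKO mouse and has no ctrl littermate, it was 0.63 on the assumption that this mouse varies like the others.

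*Cxcl12*, the ligand of both receptors, was at 10.3 CPM in ctrl, 7.25 in cKO and 10.8 in dKO on average. It had a log2 fold change of -0.53 in cKO versus ctrl (standard error 0.24, edgeR FDR = 0.852). Of 14 ligands and receptor partners of the members, 6 were at 5 CPM or more and none was at an FDR below 0.05 in edgeR in any comparison. Among the neuregulins, the ligands of ERBB4, *Nrg1* (-0.13), *Nrg2* (0.27) and *Nrg3* (0.39, edgeR FDR = 0.566) did not pass the test in cKO versus ctrl. Their log2 fold changes in dKO versus ctrl were -0.23, 0.18 and 0.05.

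*Erbb4*, the neuregulin receptor tyrosine kinase of migrating and maturing interneurons, was the only member at an FDR below 0.05 in the likelihood ratio test. In ctrl it was between 1425 and 1997 CPM with a median of 1750. In cKO mice 5, 7, S2 and F3 it was at 3419, 2513, 2162 and 2231 CPM. The dKO mice T2, T8, F1 and F7 were at 1744, 1891, 1565 and 1854 CPM. Every cKO mouse was above every ctrl and every dKO mouse, and all dKO mice were inside the ctrl range. *Erbb4* rose in cKO versus ctrl by a log2 fold change of 0.56 (0.29 to 0.84, edgeR FDR = 0.0361), or 1.48-fold (1.22 to 1.79). For dKO versus ctrl it was 0.04 (-0.22 to 0.30), so that a rise of more than 1.23-fold lay outside the interval. Between cKO and dKO it was 0.56 (0.22 to 0.91, edgeR FDR = 0.400), which did not pass the likelihood ratio test over all genes. It passed in edgeR's quasi-likelihood test (FDR = 0.00241), which called 184 genes in this comparison against 27 in the likelihood ratio test. This was the only 1 of 14 alternative settings that called it, and none of the 8 fits that left out 1 mouse did. Both mutant groups were compared with the same 7 ctrl mice.

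The difference in *Erbb4* had the same direction within each litter that held a cKO mouse. In litter 1 the means were 2966 CPM in cKO and 1963 in ctrl, in litter 2 they were 2162 and 1669, and in litter 4 cKO mouse F3 had 2231 CPM against 1709 in its dKO littermates. With litter as a covariate the log2 fold change in cKO versus ctrl was 0.49 (edgeR FDR = 0.0479). The size depended most on cKO mouse 5, without which it was 0.40 (edgeR FDR = 0.786). It was 0.52 within batch 1 and 0.47 within batch 3, where F3 is the only cKO mouse (edgeR FDR of 1 and 0.474), and 0.46 when libraries were scaled by their totals alone (edgeR FDR = 0.189). The call at FDR below 0.05 was kept in 8 of 15 alternative settings and in 4 of 11 fits that left out 1 mouse, and the sign in all of them.

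*Erbb4* is a very long gene, and long genes as a class moved in the same direction. Among genes of at least 5 CPM, the median log2 fold change in cKO versus ctrl was 0.02 for 5141 genes that span less than 30 kb and 0.15 for 550 genes of 300 kb or more. In cKO versus dKO these medians were 0.00 and 0.17, and in dKO versus ctrl they were 0.04 and 0.00. Of the 550 long genes, 25 including *Erbb4* (4.55%) had a log2 fold change at or above that of *Erbb4* in cKO versus ctrl. *Sox6*, the other member over 300 kb, had a negative value. The part of gene length, and of the greater depth of the cKO mice, in the rise of *Erbb4* was not tested.

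Counted together, at an FDR below 0.05 there was 1 higher and no lower gene among the 9 in cKO versus ctrl, where 83 of all genes (0.16%) were called, 30 of them higher. When libraries were scaled by their totals alone, 108 genes were called with 17 of them higher and none of the 9 genes among them. At an unadjusted p below 0.05, 4 members were higher (*Lhx6*, *Sst*, *Ackr3* and *Erbb4*) and *Sox6* was lower, against 10.4% of the 10855 genes of at least 5 CPM. The groups did not overlap for 1 member, *Erbb4*, and for 1.25% of those genes. The median log2 fold change of the 9 members was 0.43, and it was 0.04 over the 10855 genes.

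In dKO versus ctrl, none of the 9 genes was at an FDR below 0.05 in edgeR's likelihood ratio test, its quasi-likelihood test or DESeq2, and 0.0501% of all genes were called. At an unadjusted p below 0.05 there were 3 members in each of the 3 tools, in the likelihood ratio test *Sst* and *Ackr3* higher and *Sox6* lower, against a background of 5.73%. No member had groups that did not overlap, against 0.673%. The median over the members was 0.25, and over all genes of at least 5 CPM 0.02. In cKO versus dKO, none was called by the likelihood ratio test or DESeq2 and 1, *Erbb4*, by the quasi-likelihood test, with 0.052% of all genes called in the likelihood ratio test. *Erbb4* was also the only member at an unadjusted p below 0.05 in the likelihood ratio test (background 4.06%) and the only one without overlap (background 3.88%). The median over members was 0.05, as it was over all genes of at least 5 CPM.

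Set against the summed counts of 9 pan-GABAergic genes, which include *Gad1*, *Gad2* and the *Dlx* genes, 8 of the 9 members overlapped with ctrl in both mutants. There were 166 ± 54.2 counts of *Erbb4* per 100 pan-GABAergic counts in ctrl (SD, n = 7), 182 ± 32.8 in cKO (SD, n = 4) and 166 ± 25.1 in dKO (SD, n = 4). For *Lhx6* the values were 7.29 ± 1.62, 7.04 ± 1.72 and 8.59 ± 1.91. For *Sox6* they were 89.8 ± 19.3 in ctrl, 54.7 ± 9.71 in cKO and a mean of 70.8 in dKO. Both the cKO mice (46.6 to 68.1) and the dKO mice (67.8 to 73.9) lay below all ctrl mice (74.5 to 131). The lowest ctrl value, close to the highest dKO value, was that of mouse T5, with 353 counts of *Sox6* to 474 pan-GABAergic counts. Of the 10855 genes of at least 5 CPM, 3.34% lay below all ctrl mice on this scale in cKO and 0.0737% in dKO. For *Ackr3* they were 1.14 ± 0.45, 1.51 ± 0.23 and 1.91 ± 0.39. On this scale *Erbb4* was at 120 to 281 in ctrl mice and at 138 to 215 in cKO mice, and the ranges overlapped. Ctrl mouse 6 had the lowest pan-GABAergic sum of all mice (687 CPM), with 6092 counts of *Erbb4* to 2169 pan-GABAergic counts. This mouse raised the ctrl mean and SD of *Erbb4*, so these means do not settle whether *Erbb4* differed on this scale. Values without mouse 6 were not computed. No test was run on this scale.

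Other genes of the lineage were examined in the same way. Of 12 further MGE-lineage genes, 10 were at 5 CPM or more, and all 10 had positive log2 fold changes in cKO versus ctrl, with a median of 0.36. Of all genes of at least 5 CPM, 58.5% were positive in this comparison and 53.6% in dKO versus ctrl. Only *Nxph1*, which encodes the secreted neurexin ligand neurexophilin 1, passed the test (0.65, standard error 0.13, edgeR FDR = 0.00462). Its mean was 611 CPM in ctrl, 973 in cKO and 718 in dKO. *Zeb2* (0.20) and *Npas1* (0.35) did not pass. For dKO versus ctrl, 7 of the 10 were positive with a median of 0.15 and none passed in edgeR. At an unadjusted p below 0.05 there were 4 of the 10 in cKO, against 10.4% of all genes of at least 5 CPM, and 1 in dKO, against 5.73%.

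Of the 9 pan-GABAergic genes, *Gad1*, which encodes a GABA-synthesizing enzyme, passed the test in cKO versus ctrl (0.56, edgeR FDR = 0.0408), and all 9 were positive with a median of 0.35. *Gad2* (0.35), *Slc32a1* (0.61) and *Dlx1* (0.43) did not pass. The median was 0.10 in dKO versus ctrl, where none passed in edgeR. Of 5 genes of caudal ganglionic eminence interneurons at 5 CPM or more, none passed and the median was 0.31 in cKO and -0.02 in dKO. *Vip* was listed at 0 in all mice.

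Markers of the ventral forebrain itself, where the MGE lies, were also counted in these cortices. Their sum was 274 to 830 CPM in ctrl, 730 to 1182 in cKO and 778 to 890 in dKO. Most of it was *Ebf1*, at a mean of 542 of 684 CPM in ctrl, 743 of 928 in cKO and 649 of 830 in dKO. *Drd2*, a dopamine receptor of striatal neurons, rose in cKO (1.12, edgeR FDR = 0.0199) from a mean of 6.30 to 15.5 CPM. In dKO its mean was 12.2 CPM and its log2 fold change 0.97, which did not pass (edgeR FDR = 0.525). *Rarb*, a retinoic acid receptor of the striatum, was at 0.86 in cKO and 0.90 in dKO and passed in neither (edgeR FDR = 0.266 and 0.486). *Nkx2-1* (-0.41) and *Lhx8* (-0.55), which mark the MGE and its ventral derivatives, did not pass, nor did *Isl1* (0.28) or *Ebf1* (0.44). Of 9 genes of this list at 5 CPM or more, 1 was higher and none lower at an FDR of 0.05 when cKO was compared with ctrl, with 7 positive and a median of 0.36. In dKO none passed in edgeR, and 8 were positive with a median of 0.14. At an unadjusted p below 0.05, 3 were higher in cKO, against 10.4% of all genes of at least 5 CPM. In dKO 2 were higher, against 5.73%. None of the 12 genes was listed at 0. The part of ventral tissue in the values of the members was not tested.

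Some genes of the locally made lineage fell in cKO. In cKO versus ctrl *Eomes* (-1.13, edgeR FDR = 5.1e-06) and *Neurog2* (-1.19, edgeR FDR = 0.00564), both expressed in intermediate progenitors, and *Emx1* (-0.84, edgeR FDR = 0.0194), of the dorsal telencephalon, were lower. These were 2 of 6 progenitor genes and 1 of 8 excitatory neuron genes at 5 CPM or more. *Sox2* was listed at 0, and it lies inside the longer gene *Sox2ot* on the same strand. None of the listed genes of Cajal-Retzius, endothelial, microglial or oligodendrocyte precursor cells was at an FDR below 0.05 in edgeR in any of the 3 comparisons. Microglial genes summed to 7.06 to 21.8 CPM in ctrl, 13.0 to 25.6 in cKO and 11.1 to 23.2 in dKO, and endothelial genes, from cells also known to express *Ackr3* and *Cxcl12*, to 62.4 to 109.7 in ctrl, 74.2 to 95.5 in cKO and 71.3 to 160.8 in dKO. Their part in the values of *Ackr3* and *Cxcr4* was not tested.

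**Figure D4:**
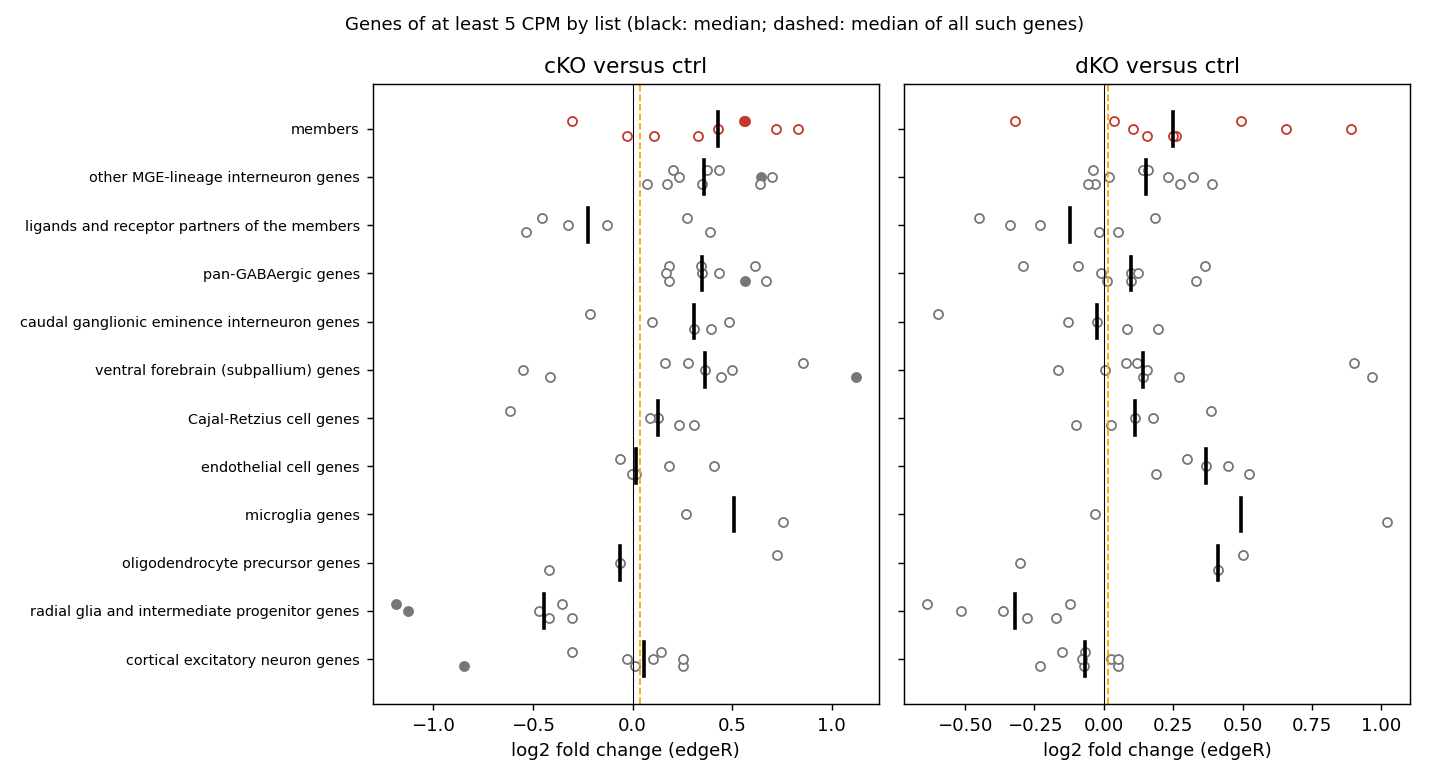
Log2 fold change (horizontal axes) of the 9 members and of the genes of 11 further lists at a mean of at least 5 CPM, in cKO versus ctrl and dKO versus ctrl, with filled points for FDR below 0.05, black bars for list medians and a dashed line for the median of all such genes. In cKO the medians of the members (0.43), the other MGE-lineage genes (0.36) and the pan-GABAergic genes (0.35) lie right of the dashed line (0.04), and that of radial glia and intermediate progenitor genes (-0.45) left of it.

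Across the 15 mice, the 9 genes were only weakly correlated in the median. Over their 36 pairs the median Pearson correlation of log2 CPM was 0.15, from -0.60 for *Maf* and *Sox6* to 0.66 for *Lhx6* and *Ackr3*, and 21 pairs were positive. These mice share groups, litters and depth, and the values are descriptive. Counting error lowers such correlations for genes with few counts. Over all mice the coefficient of variation of *Npy* was 40.0%, and counting error alone gives 36.1%. For *Erbb4* these were 25.1% and 2.05%. Among genes with a mean of at least 20 CPM, the 5 most like *Lhx6* were *Rarb* (0.85), *Zfp101* (0.80), *Npc1* (0.78), *Faxc* (0.78) and *Rap1b* (0.78). *Rarb* is one of the ventral forebrain genes. Among the 5 most like *Erbb4*, out of 7076 genes, were *Gria4* (0.90), *Nxph1* (0.90), *Grip1* (0.90) and *Zfp704* (0.89). These 4 were long, spanning 183 to 633 kb, where the median of the compared genes was 46.5 kb.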

How the data were processed

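RNA was extracted from E15.5 cortices, depleted of rRNA and made into ClickSeq libraries with a UMI. Per the submitters' processing notes and the study's methods, the authors trimmed reads with cutadapt 1.13, aligned them to mm10 with STAR 2.5.2a, collapsed duplicates with UMI-tools 0.5.3 and counted genes with HTSeq 0.6.1p1. The deposited values are whole-number counts per gene and library, not normalized. The annotation release, and the strand and feature settings of the counting, are not given in the sources used here.

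The 5 HTSeq summary lines of each file were left out. Libraries S2 and S2b were summed as 1 cKO mouse, since the series counts 15 mice for 16 libraries. Over 13658 genes their counts had a chi-square of 1.14 per degree of freedom, while other pairs of cKO libraries had 3.56 to 27.4. As in the study's methods, edgeR (4.0.16, R 4.3.3) gave likelihood ratio tests with Benjamini-Hochberg adjustment. TMM scaling, the use of all 51912 genes, no covariates and fitting only the mice of the groups compared were chosen here, and genes at an FDR below 0.05 were called. Intervals are 95% normal intervals, with the SE taken as the log2 fold change over the square root of the likelihood ratio statistic. The labels do not say how mice share dams beyond the litter. The main fits had no litter or batch term, so their p-values treat littermates as independent mice. The spread they use for a gene is partly shared across genes. CPM were scaled by TMM over all 15 mice. Correlations used log2 CPM with a prior count of 2. Gene symbols, spans and exons came from GENCODE M21 and promoter windows from RefSeq. Steps were tested on simulated data. Alternatives were edgeR's quasi-likelihood test, DESeq2 1.42.0, RLE factors, totals only, filterByExpr, 1 fit of all groups, batch, litter or sex as covariates, wild-type ctrl only, single batches, single S2 libraries and each mouse left out. Leaving out F1 and F7, or the 4 mice under 600000 counts, was added after seeing the data. The members and lists were chosen with earlier results of these data known. All 9 members were described, and of the other lists the genes at an FDR below 0.05 and up to 4 more in written order were named, except for some genes that are not reported here. Depth sets a floor of 3 counts for detection.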

Additional observations from a re-analysis of the deposited data

Results flagged for a closer look

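In 3 of 27 groups of mice (9 genes by 3 groups), the highest mouse stood further from the rest than Dixon's 95% critical value allows, and chance flags about 1 in 20 groups. *Maf* was at 64.5 CPM in ctrl mouse T5, from 29 counts, where the next ctrl mouse was at 37.0 CPM. *Sst* was at 38.0 CPM in cKO mouse F3, from 167 counts, where the next cKO mouse was at 15.5 CPM. The dKO littermates of F3 had 25.1 and 27.4 CPM. *Cxcr4* was at 25.2 CPM in ctrl mouse 2, from 15 counts, where the next ctrl mouse was at 14.2 CPM. The value of *Sst* rests on the most counts of the 3.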

How the results depend on the processing

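Of the 27 log2 fold changes of the 9 genes in the 3 comparisons, *Erbb4* in cKO versus ctrl was the only one called, and it kept its sign under every alternative run (0.46 to 0.58, and 0.40 to 0.64 with 1 mouse left out). It was no longer called with RLE factors (FDR = 0.0782), totals only, batch as a covariate, wild-type ctrl only, 1 batch or without the 4 shallow mice in edgeR. *Sst* in cKO versus ctrl gained a call in batch 3 alone (1.82), and *Erbb4* in cKO versus dKO in the quasi-likelihood test. The labels give no replicate numbers that groups share, and litter, which some mice of different groups share, was the block tried. Values that were never called and changed sign were as follows. In dKO versus ctrl, *Maf* was -0.055 with batch, -0.21 with litter, -0.080 in batch 3 and -0.11 without F1 and F7. *Npy* was -0.73 with litter and -0.36 without F1 and F7, and *Erbb4* was -0.011 with wild-type ctrl only. In cKO versus ctrl, *Cxcr4* was 0.028 with library S2 alone and 0.16 without the 4 shallow mice. In cKO versus dKO, *Sox6* was -0.0076 (DESeq2), -0.0081 (RLE), -0.063 (totals), -0.016 (filterByExpr), -0.25 (batch, and batch 3 alone), -0.078 (litter) and -0.12 (without F1 and F7). *Satb1* was 0.10 (batch), 0.084 (litter) and 0.11 (batch 3). *Sst* was 0.77 (batch), 0.54 (litter), 0.80 (batch 3) and 0.54 (without F1 and F7). *Npy* was 0.014 (quasi-likelihood), 0.020 (DESeq2), 0.028 (batch), 0.088 (batch 3) and 0.87 (without F1 and F7). *Ackr3* was -0.20 (batch), -0.019 (litter), -0.21 (batch 3) and -0.24 (without F1 and F7). With 1 mouse left out, these ranged in cKO versus dKO from -0.16 to 0.15 for *Sox6*, -0.066 to 0.030 for *Satb1*, -0.56 to 0.16 for *Sst*, -0.14 to 0.24 for *Npy* and -0.087 to 0.30 for *Ackr3*. In cKO versus ctrl *Cxcr4* ranged from -0.17 to 0.16, and in dKO versus ctrl *Erbb4* from -0.0086 to 0.083. The cause was not tested.

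Among all genes, 83 were called in cKO versus ctrl, and 352 by quasi-likelihood, 138 by DESeq2, 138 with filterByExpr, 49 in 1 fit of all groups, 16 with wild-type ctrl only, 13 in batch 1, 203 in batch 3, 52 without the shallow mice and 17 to 373 with 1 mouse left out. In dKO versus ctrl there were 26, and 113, 8, 14 and 14 under the first 4 of these, 17 with batch, 4 with litter, 17 with wild-type ctrl only, 0 in edgeR without F1 and F7 and 17 to 59 with 1 mouse left out. In cKO versus dKO there were 27, and 184, 7, 14 and 14 under the first 4, 61 with totals only, 3 with batch, 44 with sex, 1 in batch 3, 58 without F1 and F7, 62 without the shallow mice and 6 to 179 with 1 mouse left out. Scaling by totals moved the median log2 fold change of all genes in cKO versus ctrl by -0.09. Of the members only *Npy* was lost to filterByExpr, in dKO versus ctrl. Litter could be fitted in cKO versus ctrl only from litters 1 and 2, since litter 3 holds no cKO mouse and litter 4 no ctrl mouse. In dKO versus ctrl the fit with litter rested on litter 3 alone. In cKO versus dKO it rested on litter 4, where F3 is the only cKO mouse. With batch as a covariate, both of these comparisons rested on batch 3, where F3 is again the only cKO mouse. *Npy*, *Sst*, *Cxcr4* and *Ackr3* had as few as 1 to 4 counts in a ctrl mouse, which limits their precision.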
